A study of Mus musculus with 20 samples.

Results

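Matrix metalloproteases cut the proteins of the extracellular matrix, and a small set of secreted inhibitors holds them in check. The transcripts of 10 genes of this system were followed in mouse kidney tumours: the proteases Mmp2, Mmp9, Mmp3, Mmp12, Mmp13 and Mmp14, the inhibitors Timp1, Timp2 and Timp3, and Lox, an enzyme that cross-links collagen and elastin. The 10 genes were taken by name from a table of 34234 genes, and all 10 passed the filter on low values, as did 15855 genes in all. The tumours arose in mice given MSRT1 cells, a line that the labels describe as renal medullary carcinoma, and the source is given as kidney tumour. The mice had received GYY4137, a compound that slowly releases hydrogen sulfide, or vehicle, and with it an antibody against the checkpoint receptor PD1 or control IgG. This gave 4 groups of 5 tumours each, called GYY_PD1 (both agents), GYY_IgG (GYY4137 with control IgG), Veh_PD1 (vehicle with anti-PD1) and Veh_IgG (vehicle with control IgG). All groups share the 1 cell line. Doses, the times of treatment, and the strain, sex and age of the mice are not given in the labels used here, and nothing beyond the words biological replicate says how the mice were kept, so p-values measure the spread between these libraries.

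Most of these proteases are made as inactive precursors, in which a cysteine of the propeptide blocks the zinc ion of the active site, and removal of the propeptide sets them free. Mmp14 is anchored in the cell membrane and, together with Timp2, brings proMmp2 to the surface for activation, so that Timp2 takes part both in the activation and in the inhibition of Mmp2. In tumours these genes are known to be expressed by stromal fibroblasts, macrophages, neutrophils and vessel cells as well as by the cancer cells, and bulk RNA does not separate these sources.

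Levels are given as rescaled TPM, which is the deposited TPM rescaled to a total of 1000000 over 18021 nuclear protein-coding genes. These coding genes held 2.91% to 22.3% of the deposited TPM in GYY_PD1 tumours, 12.3% to 39.6% in GYY_IgG, 11.1% to 34.7% in Veh_PD1 and 27.9% to 42.8% in Veh_IgG, and a gene at a given rescaled level has a lower deposited value where that share is low. GYY_PD1 replicates 1 and 4 stood apart, with coding shares of 4.38% and 2.91% and median Spearman correlations with the other libraries of 0.539 and 0.897, against 0.942 or more for every other library. The depth of the libraries is unknown, since TPM values hold no read numbers. Receptor genes of the olfactory and vomeronasal families, 1134 in all and silent in most tissues, served as a measure of background, and their mean rescaled TPM was 0.269 to 1.91 in GYY_PD1, 0.0559 to 0.586 in GYY_IgG, 0.0656 to 1.11 in Veh_PD1 and 0.0441 to 0.195 in Veh_IgG. The markers of the list named epithelial tumour summed to 620 to 3726 rescaled TPM in GYY_PD1, 2529 to 3418 in GYY_IgG, 1761 to 3717 in Veh_PD1 and 2463 to 3786 in Veh_IgG. Vim, a mesenchymal gene on this list, had a median of 2019 rescaled TPM over the 20 libraries. Medians were 587 for Krt8, 412 for Krt18, 25.3 for Cdh1 and 8.51 for Epcam. The sums are thus largely Vim and do not measure epithelial content.

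The 6 proteases share the histidines that hold the catalytic zinc. Their coding bases are shown to identify the family feature that makes these genes proteases; the 33 bases come from GENCODE M21 transcripts on GRCm38, all on the + strand and in coding exons, and the capitals mark the codons of the 3 histidines that bind zinc.
Mmp2 (chr8:92839279-92839311, exon 8 of 13, residues 403 to 413 of 662): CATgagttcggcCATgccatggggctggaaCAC
Mmp9 (chr2:164951133-164951165, exon 8 of 13, residues 401 to 411 of 730): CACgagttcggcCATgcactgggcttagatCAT
Mmp3 (chr9:7449775-7449807, exon 5 of 10, residues 220 to 230 of 479): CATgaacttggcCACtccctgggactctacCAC
Mmp12 (chr9:7352914-7352946, exon 5 of 10, residues 222 to 232 of 473): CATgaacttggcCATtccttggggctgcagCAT
Mmp13 (chr9:7276573-7276605, exon 5 of 10, residues 223 to 233 of 472): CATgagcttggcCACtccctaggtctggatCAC
Mmp14 (chr14:54437627-54437659, exon 5 of 10, residues 239 to 249 of 582): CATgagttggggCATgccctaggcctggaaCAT
The same base stood in all 6 genes at 17 of the 33 positions. Pairs of genes shared between 20 bases, for Mmp9 with Mmp3, and 27 bases, for Mmp2 with Mmp14 and for Mmp3 with Mmp13.

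Timp2 and Mmp12 were the most abundant of the 10 transcripts on the scale of rescaled TPM, which corrects for transcript length. Over the 20 libraries the median level was 414 rescaled TPM for Timp2, 373 for Mmp12, 217 for Mmp2 and 159 for Lox. Timp1 had a median of 85.3, Mmp14 of 38.99, Mmp13 of 36.6 and Timp3 of 23.6. Mmp9 at 5.58 and Mmp3 at 1.37 were the least abundant. By mean level Timp2 ranked 321 and Mmp12 ranked 339 among the 15855 tested genes, while Mmp3 ranked 13529. In all 20 libraries, 8 members lay above the 95th percentile of the receptor genes, whereas Mmp9 did so in 19 and Mmp3 in 14, so Mmp3 was close to the background of these libraries. Mmp2 and Mmp12 together made up 68.1% to 93.8% of the summed level of the 6 proteases in a library (median 87.1%), and Timp2 made up 46.4% to 86.8% of the summed level of the 3 inhibitors (median 77.8%).

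**Figure D1:**
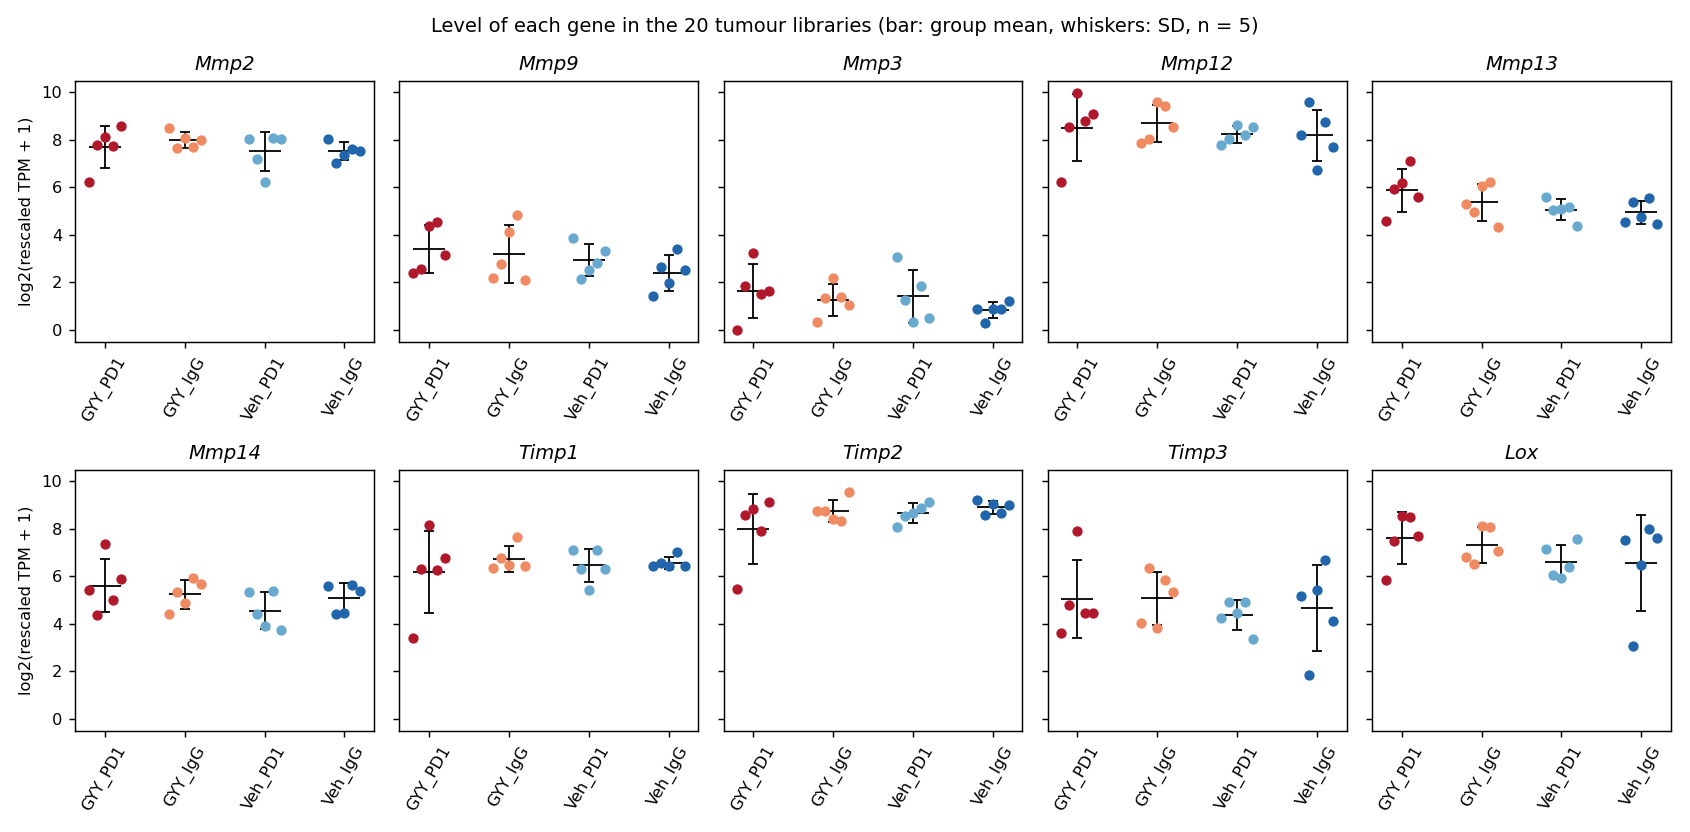
Level of each of the 10 genes as log2(rescaled TPM + 1), with 1 point per library, a bar at the group mean and whiskers of 1 SD (n = 5 each). The spread within groups is as wide as the distances between groups. Timp2 and Mmp12 sit highest and Mmp3 lowest. The lowest GYY_PD1 point is replicate 1 for every gene except Mmp14.

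Spread between tumours differed by gene. From the lowest to the highest library, Mmp2 ranged 5.14-fold and Mmp13 7.0-fold, against 49.7-fold for Lox and 90.5-fold for Timp3. Timp1, Timp2, Mmp9, Mmp12 and Mmp14 lay between these, at 30.2, 17.0, 16.4, 13.8 and 13.4-fold. GYY_PD1 replicate 3 held the highest value of Mmp3, Mmp12, Mmp14, Timp1, Timp3 and Lox, and GYY_PD1 replicate 1 held the lowest value of Mmp3, Mmp12, Timp1 and Timp2.

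Of the gelatinases, which cut denatured collagen and collagen IV of basement membranes, Mmp2 was abundant in every group, with means of 232 ± 110.1 rescaled TPM in GYY_PD1, 258 ± 65.4 in GYY_IgG, 202 ± 87.96 in Veh_PD1 and 188 ± 49.8 in Veh_IgG (SD, n = 5 each). Mmp2 (chr8:92827291-92853420 in GRCm38, + strand) stood at 74.6, 219, 277, 214 and 378 rescaled TPM in the GYY_PD1 tumours and at 362, 199, 269.9, 207 and 251 in GYY_IgG. It stood at 260.2, 147, 73.4, 271 and 258 in Veh_PD1 and at 265, 131, 163, 195 and 186 in Veh_IgG. The groups overlapped, with 2 GYY_PD1 tumours above and 1 below every Veh_IgG tumour. The difference of GYY_PD1 from Veh_IgG was 0.17 (SE 0.39, 95% interval -0.64 to 0.97) on the log2(rescaled TPM + 1) scale, which is the scale of all log2 differences given for single genes (limma, adjusted p = 0.761).

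Mmp9 (chr2:164940780-164955850, + strand), the other gelatinase and a known product of neutrophil granules, was far less abundant. Its levels were 4.29, 4.92, 19.7, 22.6 and 7.83 rescaled TPM in GYY_PD1, 3.56, 5.81, 16.6, 27.5 and 3.28 in GYY_IgG, 13.5, 3.44, 4.72, 6.12 and 8.88 in Veh_PD1 and 1.67, 5.35, 2.91, 9.62 and 4.74 in Veh_IgG. GYY_PD1 replicates 3 and 4 and GYY_IgG replicates 3 and 4 were higher than all the other tumours, and the other libraries of these groups lay within the Veh_IgG range. In GYY_PD1 replicate 1 Mmp9 lay below the 95th percentile of the receptor genes, at 7.58. The log2 difference of GYY_PD1 from Veh_IgG was 1.01 (SE 0.55, 95% interval -0.13 to 2.15), which did not pass the threshold (limma, adjusted p = 0.251).

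Mmp13, Mmp12 and Mmp3 lie in a cluster on chromosome 9 in which 9 Mmp genes of the lists with a rescaled level lie within 427 kb. Mmp1a, also on the lists, had no rescaled level and was not placed. Mmp13 (chr9:7272514-7283331, + strand), an interstitial collagenase that cuts fibrillar collagen, had 23.2, 60.9, 71.4, 135 and 46.9 rescaled TPM in GYY_PD1 and 38.4, 30.3, 65.03, 72.9 and 19.3 in GYY_IgG. It had 47.9, 32.4, 32.8, 34.9 and 20.05 in Veh_PD1 and 22.7, 40.3, 26.3, 45.7 and 21.3 in Veh_IgG. Of the 5 GYY_PD1 tumours, 4 lay above every Veh_IgG tumour, and replicate 1 lay within their range. The means were 67.5 ± 41.9 in GYY_PD1 and 31.2 ± 11.04 in Veh_IgG (SD, n = 5 each). The log2 difference was 0.93 (SE 0.399, 95% interval 0.103 to 1.77). Mmp13 was the single member with an unadjusted p under 0.05 in this comparison, and it did not pass after Benjamini-Hochberg adjustment over all genes (limma, adjusted p = 0.178). Among all tested genes 23.2% had an unadjusted p under 0.05, 16.3% with a higher and 6.93% with a lower level in GYY_PD1. As deposited TPM, not rescaled, the means of Mmp13 were 7.991 ± 5.702 in GYY_PD1 and 10.1 ± 2.24 in Veh_IgG (SD, n = 5 each), so the direction differed between these scales; the deposited log2 values centred on the library median gave a difference of 1.099.

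Mmp12 (chr9:7344381-7369499, + strand), the macrophage elastase, had 73.1, 373, 1006, 438 and 536 rescaled TPM in GYY_PD1, 236, 258, 764, 692 and 376 in GYY_IgG, 218, 265, 399, 294 and 373 in Veh_PD1 and 292, 773, 106, 426 and 208 in Veh_IgG. The lowest tumour and the highest tumour of all 20 were both in GYY_PD1, and the Veh_IgG tumours spanned most of the range between them. The log2 difference of GYY_PD1 from Veh_IgG was 0.32 (SE 0.57, 95% interval -0.86 to 1.503; limma, adjusted p = 0.686). The 3′ end of Mmp12 overlaps Mmp1b on the opposite strand. Whether counting used strand is not given in the sources used here, so reads of the overlap cannot be told apart; Mmp1b had a median of 0.0598 rescaled TPM.

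Mmp3 (chr9:7445822-7455975, + strand), a stromelysin with many matrix substrates that also activates other proMmps, was listed at 0, 2.56, 8.39, 1.83 and 2.105 rescaled TPM in GYY_PD1. It stood at 0.278, 1.55, 3.55, 1.63 and 1.09 in GYY_IgG, at 7.53, 1.41, 0.26, 2.62 and 0.427 in Veh_PD1 and at 0.863, 0.227, 0.837, 0.867 and 1.34 in Veh_IgG. Of the GYY_PD1 tumours 4 lay above every Veh_IgG tumour and 1 lay below all of them. The log2 difference was 0.801 (SE 0.54, 95% interval -0.32 to 1.92; limma, adjusted p = 0.320). Without GYY_PD1 replicate 3 it was 0.403 and without GYY_PD1 replicate 1 it was 1.21. The levels of the receptor genes were also higher in GYY_PD1 than in Veh_IgG, over the ranges given above, and the part of this background in the Mmp3 values was not tested.

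The other genes of the cluster also differed widely in level. Median levels over the 20 libraries were 36.2 rescaled TPM for Mmp10, 26.1 for Mmp27, 14.3 for Mmp8, 1.63 for Mmp7 and 0.0497 for Mmp20. Mmp10, another stromelysin, was thus about as abundant as Mmp13. Position in the cluster did not order the levels, since Mmp12, the highest, and Mmp1b, near 0, are adjacent.

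Upstream of a start site, Mmp3, Mmp12 and Mmp13 each carry the same short run of letters. The windows of 300 bases, from 250 before to 50 after the start site, are RefSeq's on GRCm38.p6 and were found for 7 members (2 windows for Mmp12), with none for Mmp2, Mmp9 and Lox. The letters TGANTCA, which read the same on both strands and are those of the AP-1 motif, stood 46 bases before the start of Mmp3, 44 before 1 of the starts of Mmp12 and 35 before that of Mmp13. They are shown with 20 bases on each side, the motif in capitals, because the 3 cluster genes share them at a similar place.
Mmp3 (chr9:7445756-7445802, + strand): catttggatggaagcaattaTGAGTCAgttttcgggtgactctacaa
Mmp12 (chr9:7347310-7347356, + strand): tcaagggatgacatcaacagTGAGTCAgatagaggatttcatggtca
Mmp13 (chr9:7272459-7272505, + strand): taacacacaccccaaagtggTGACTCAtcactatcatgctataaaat
The stretch of Mmp12 lies inside the annotated gene, before a start site downstream of the first one. No window of Mmp14, Timp1, Timp2 or Timp3 held these letters, and 7.81% of all 32851 windows of this length did. The letters AGGAAG or their reverse complement CTTCCT, known as PEA3 and bound by ETS factors, were far more common, in 35.4% of all windows. A window held them in Mmp3, Mmp12, Mmp13, Mmp14, Timp1 and Timp3, and not in Timp2. A match describes letters only. The 8 genes of the AP-1 list, the Fos and Jun families and Batf, were split evenly in GYY_PD1 against Veh_IgG, with 4 above and 4 below 0, a median log2 difference of -0.07 and none past the threshold.

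Mmp14 (chr14:54431612-54445364, + strand), the membrane-bound activator of proMmp2, had 41.9, 19.4, 162, 31.2 and 58.4 rescaled TPM in GYY_PD1, 20.3, 39.3, 28.03, 58.9 and 49.3 in GYY_IgG, 38.7, 20.5, 13.9, 40.7 and 12.1 in Veh_PD1 and 46.8, 20.1, 20.5, 48.02 and 40.9 in Veh_IgG. GYY_PD1 replicate 3 was far above all the other tumours, and the groups otherwise overlapped. The log2 difference of GYY_PD1 from Veh_IgG was 0.52 (SE 0.47, 95% interval -0.46 to 1.501; limma, adjusted p = 0.434), and without GYY_PD1 replicate 3 it was 0.086. Against Veh_PD1 it was 1.06 (SE 0.47, 95% interval 0.08 to 2.04), and Mmp14 was the single member with an unadjusted p under 0.05 there (limma, adjusted p = 0.381, 0% of all genes past the threshold). Among all tested genes 12.7% had an unadjusted p under 0.05 in that comparison. Without GYY_PD1 replicate 3 the difference from Veh_PD1 was 0.62, and on the deposited values, whose median of all genes was -1.17, it was 0.19.

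Among the inhibitors Timp2 was lowest in GYY_PD1 and highest in Veh_IgG by mean, and this rested largely on 1 library. Timp2 (chr11:118301069-118355740, − strand), a broad inhibitor that also forms the complex with Mmp14 and proMmp2, had 43.4, 379, 453, 239 and 554 rescaled TPM in GYY_PD1 and 420.1, 426, 334, 321 and 738 in GYY_IgG. It had 264, 364, 407, 466 and 562 in Veh_PD1 and 591, 383, 520.1, 399.9 and 511 in Veh_IgG. No GYY_PD1 tumour exceeded the highest Veh_IgG tumour, and 3 lay below the lowest. The log2 difference was -0.92 (SE 0.48, 95% interval -1.91 to 0.08; limma, adjusted p = 0.240). Without GYY_PD1 replicate 1 the difference was -0.29, and without both libraries that stood apart it was -0.055.

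Timp1 (chrX:20870166-20874735, + strand), an inhibitor known to bind proMmp9, had 9.47, 78.3, 286, 75.4 and 107 rescaled TPM in GYY_PD1, 80.1, 108, 87.1, 199.8 and 83.8 in GYY_IgG, 138, 78.7, 41.5, 138 and 76.8 in Veh_PD1 and 83.7, 92.7, 84.7, 127 and 85.9 in Veh_IgG. GYY_PD1 held both the highest and the lowest tumour of all 20, while 4 of the 5 Veh_IgG tumours lay close together. The log2 difference was -0.39 (SE 0.56, 95% interval -1.56 to 0.79; limma, adjusted p = 0.624), and it turned to 0.52 without the 2 libraries that stood apart.

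Timp3 (chr10:86300372-86349506, + strand), an inhibitor held in the matrix that also acts on adamalysins, had 11.3, 26.3, 238, 20.6 and 21.01 rescaled TPM in GYY_PD1, 15.1, 80.6, 13.2, 55.5 and 39.1 in GYY_IgG, 17.99, 29.4, 20.6, 28.7 and 9.097 in Veh_PD1 and 34.7, 2.63, 42.2, 101 and 16.1 in Veh_IgG. GYY_PD1 replicate 3 was the highest by a wide margin and Veh_IgG replicate 2 the lowest. The log2 difference of GYY_PD1 from Veh_IgG was 0.39 (SE 0.79, 95% interval -1.24 to 2.03; limma, adjusted p = 0.723). It turned to -0.32 without GYY_PD1 replicate 3 and to -0.30 without Veh_IgG replicate 2.

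Lox, on chromosome 18, had 56.1, 177, 366, 356 and 206 rescaled TPM in GYY_PD1, 110.5, 90.7, 278, 270.4 and 131 in GYY_IgG, 141, 64.9, 59.1, 81.4 and 187 in Veh_PD1 and 184, 7.37, 88.8, 254 and 194 in Veh_IgG. The 2 highest tumours were GYY_PD1 replicates 3 and 4, and Veh_IgG replicate 2 was far below all the other tumours. The log2 difference of GYY_PD1 from Veh_IgG was 1.06 (SE 0.72, 95% interval -0.43 to 2.55; limma, adjusted p = 0.322). Without Veh_IgG replicate 2 it was 0.19.

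Set together, the combination against neither agent showed no member past the threshold of an adjusted p under 0.05. Of the 10 members 8 had a higher mean log2 level in GYY_PD1 and 2, Timp1 and Timp2, a lower one, on the rescaled values, whereas on the deposited values all 9 members that could be tested were lower (Mmp3 did not pass the filter there) and the median of all tested genes was -2.09. On that deposited scale 70.2% of the tested genes passed (10831 of 15422), 69.9% lower and 0.311% higher. Among the members Timp1 at -2.18 and Timp2 at -2.69 passed (limma, adjusted p = 0.0354 and 0.0236). Relative to the median of all tested genes Timp1 stood at -0.096, close to the shift of all genes, and Timp2 at -0.61. On the rescaled values the median of the 10 log2 differences was 0.46, beside -0.08 over all tested genes. No member out of 10, and 0% of all 15855 genes, passed in this comparison; at an unadjusted p under 0.05 the counts were 1 of 10 members and 3681 genes. Markers of other cell types also differed in this comparison, and not all in 1 direction. Of 8 macrophage markers 2 had a higher and 6 a lower mean log2 level in GYY_PD1, with a median of -0.39. By limma 1 of the lower ones had an unadjusted p under 0.05. Of 8 T cell markers 6 were tested, all but Trac and Trbc2. All 6 had a higher mean log2 level, with a median of 1.54, and each had an unadjusted p under 0.05 by limma and none passed after adjustment. The sum of these 6 was 27.4 to 83.4 rescaled TPM in GYY_PD1, 12.9 to 28.4 in GYY_IgG, 8.19 to 42.7 in Veh_PD1 and 6.38 to 10.8 in Veh_IgG. Of these T cell markers Cd3g was listed at 0 in 1 library. Cd3d and Cd8a had medians of 0.98 and 1.10 rescaled TPM over the 20 libraries. The 95th percentile of the receptor genes was 7.58 in GYY_PD1 replicate 1 and 6.32 in replicate 4, and the part of this background in the T cell markers was not tested. Of 8 adipocyte markers 7 passed, and all 7 had a higher mean, with a median of 2.31 and 5 at an unadjusted p under 0.05; their sum was 108.9 to 4809 in GYY_PD1, 86.0 to 263.7 in GYY_IgG, 64.1 to 160.5 in Veh_PD1 and 35.6 to 316.5 in Veh_IgG, with the highest value in GYY_PD1 replicate 3. Adipoq was listed at 0 in 3 libraries, Retn and Cfd in 2 each and Plin1 and Cidec in 1 each. The part of these cells in the levels of the members was not tested. With library weights limma called 64 genes and with the replicate number as a block 3, none of them members. No member had all 5 GYY_PD1 tumours above or below all 5 Veh_IgG tumours, against 4.74% of tested genes wholly higher and 1.31% wholly lower.

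**Figure D2:**
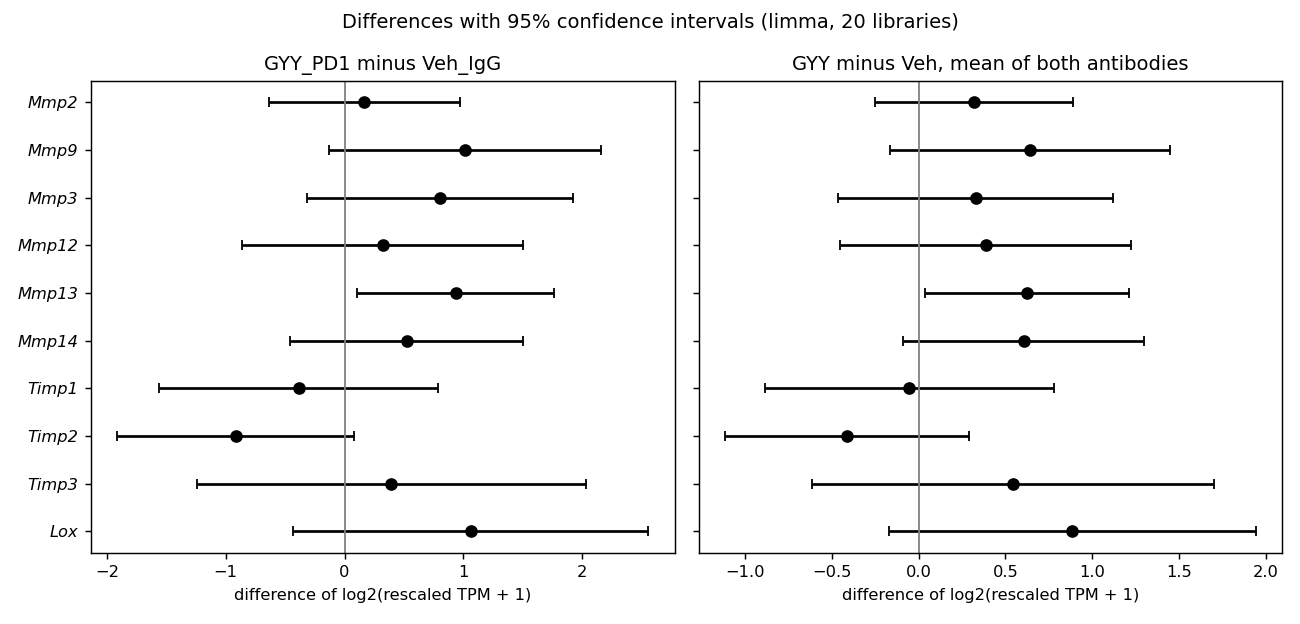
Log2 differences of the 10 genes with 95% confidence intervals from limma, for GYY_PD1 minus Veh_IgG (left) and for GYY4137 minus vehicle averaged over both antibodies (right). In both panels the interval of Mmp13 is the single one that leaves out 0, and no adjusted p passed the threshold.

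Averaged over both antibodies, GYY4137 against vehicle gave the same split of 8 members above and 2 below 0, with a median of 0.47 beside 0.003 over all tested genes, while on the deposited values, whose median of all genes was -0.78, 5 of the 8 (Mmp2, Mmp12, Mmp13, Mmp14 and Timp3) lay below 0. The largest differences were 0.89 for Lox, 0.64 for Mmp9, 0.62 for Mmp13 and 0.60 for Mmp14, and the lowest was -0.41 for Timp2. Without Veh_IgG replicate 2 the average difference of Lox was 0.45, without GYY_PD1 replicate 3 that of Mmp14 was 0.39, and without GYY_PD1 replicate 1 that of Timp2 was -0.097. Mmp13 had the smallest p of the members (SE 0.28; limma, adjusted p = 0.572). No member and 0% of all genes passed after adjustment; 8.5% of all genes had an unadjusted p under 0.05 (1348 genes), against 1 of the 10 members, and limma with library weights called 11 genes, none of them members. This average shares all its libraries with the comparisons of single groups, so it is not separate evidence. GYY_IgG against Veh_IgG, the donor without anti-PD1, gave 9 members above 0 and 1 below, with a median of 0.43 beside 0.08 over all genes, of which 65.4% lay above 0. On the deposited values 5 of 9 members lay above 0 and 4 below. Again none passed on the rescaled values (0% of all genes, 78 genes or 0.492% at an unadjusted p under 0.05, no member among them).

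Anti-PD1 against control IgG, averaged over vehicle and GYY4137, left 4 members above and 6 below 0, with a median of -0.07 beside -0.07 over all genes, on the rescaled values. On the deposited values all 9 members tested lay below 0, between -1.61 and -0.64, where the median of all genes was -1.299. No member and 0% of all genes passed (limma, smallest adjusted p of a member 0.468), and 1823 genes, or 11.5%, had an unadjusted p under 0.05, none of them members. Veh_PD1 against Veh_IgG gave 5 members above and 5 below 0, with no member past the threshold or at an unadjusted p under 0.05 (0% and 1.2% of all genes). GYY_PD1 against GYY_IgG likewise gave 5 above and 5 below 0 and no member at either level (0% and 13.9% of all genes). On the deposited values all 9 members lay below 0 in both comparisons, between -1.43 and -0.20 for Veh_PD1 against Veh_IgG and between -2.10 and -0.82 for GYY_PD1 against GYY_IgG, where the medians of all genes were -0.899 and -1.69. The interaction, which asks whether the effect of GYY4137 differs with the antibody, gave no call among the members or among all genes (0%; 234 genes or 1.48% at an unadjusted p under 0.05, no member among them), and the smallest adjusted p of a member was 0.862 by limma. The intervals of the interaction were wide: for Mmp14, which had the highest value, 0.91 (SE 0.66, 95% interval -0.48 to 2.29).

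The balance of protease to inhibitor was read as ratios of TPM within a library, which do not depend on the rescaling. Mmp2 relative to Timp2, the pair brought together by Mmp14, was 1.72, 0.578, 0.611, 0.896 and 0.682 in GYY_PD1, 0.863, 0.468, 0.807, 0.644 and 0.3401 in GYY_IgG, 0.986, 0.402, 0.1802, 0.583 and 0.459 in Veh_PD1 and 0.449, 0.342, 0.314, 0.488 and 0.364 in Veh_IgG. All 5 GYY_PD1 tumours lay above all 5 Veh_IgG tumours, and the lowest GYY_PD1 value was 0.578 against a highest Veh_IgG value of 0.488. GYY_IgG and Veh_PD1 overlapped with both. Of the ratios of every other tested gene to Timp2, 4.24% separated GYY_PD1 from Veh_IgG in this way, as did 4.85% of the ratios of Mmp2 to every other tested gene. No test is given for the ratios.

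The other ratios overlapped between GYY_PD1 and Veh_IgG. Mmp14 relative to Timp2 ranged from 0.0511 to 0.965 in GYY_PD1, 0.0484 to 0.183 in GYY_IgG, 0.0216 to 0.147 in Veh_PD1 and 0.0395 to 0.120 in Veh_IgG. Mmp9 relative to Timp1 ranged from 0.0628 to 0.453 in GYY_PD1, 0.0391 to 0.190 in GYY_IgG, 0.0437 to 0.116 in Veh_PD1 and 0.0200 to 0.0760 in Veh_IgG. In both, GYY_PD1 replicate 1 was the highest tumour of all 20. In that library Mmp9 stood at 4.29 rescaled TPM, below the 95th percentile of the receptor genes at 7.58, and Timp1 stood at 9.47. The summed level of the 6 proteases relative to that of the 3 inhibitors had medians of 1.58 in GYY_PD1, 1.28 in GYY_IgG, 1.04 in Veh_PD1 and 0.887 in Veh_IgG, and it ranged from 1.40 to 3.38 in GYY_PD1, 0.813 to 2.64 in GYY_IgG, 0.992 to 1.40 in Veh_PD1 and 0.494 to 2.03 in Veh_IgG. Veh_IgG replicate 2, in which Mmp12 was highest within that group, was the single Veh_IgG tumour above the lowest GYY_PD1 tumour.

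**Figure D3:**
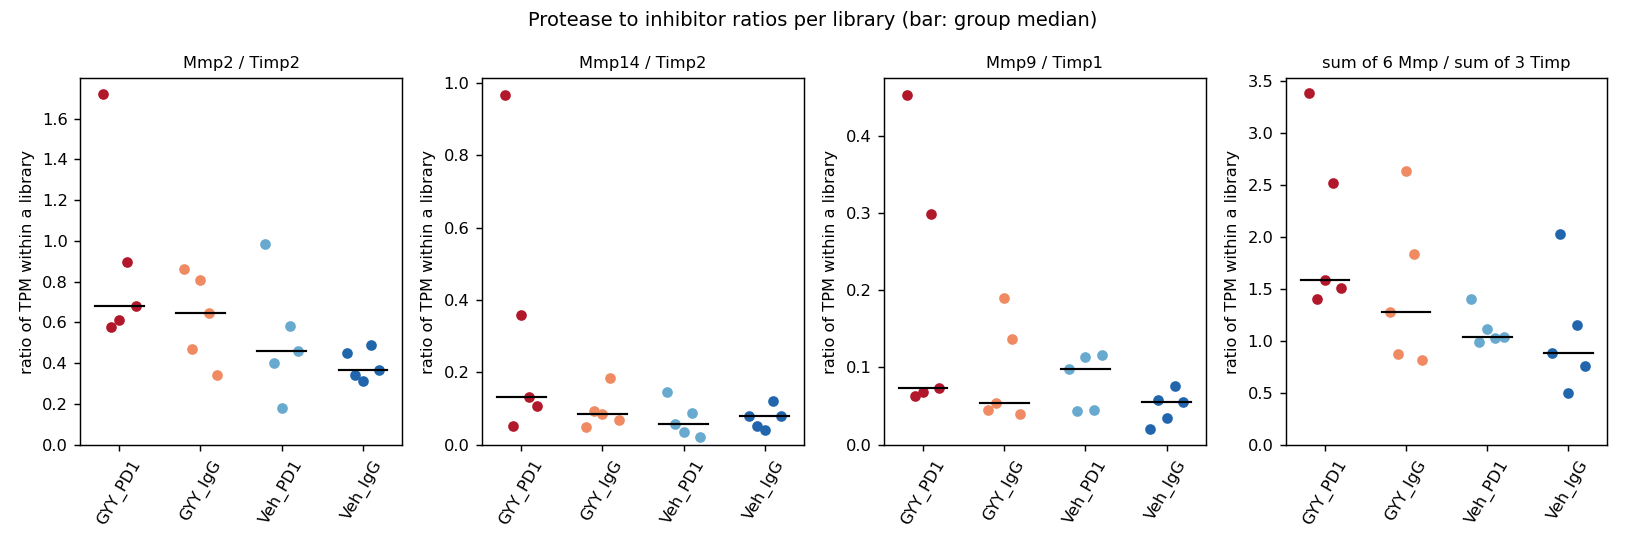
Ratios of protease to inhibitor TPM within each library for Mmp2 to Timp2, Mmp14 to Timp2, Mmp9 to Timp1 and the sum of 6 proteases to the sum of 3 inhibitors, with 1 point per library and a bar at the group median. In the first panel the GYY_PD1 points lie between 0.578 and 1.72 and the Veh_IgG points between 0.314 and 0.488; in the other panels the groups overlap.

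The members were set against the coding share of the library within each treatment group, and the groups differed in what they showed. The boundary of 15% was chosen after the values were seen; it puts 2 libraries of each of GYY_PD1, GYY_IgG and Veh_PD1 below it and none of Veh_IgG. Within GYY_IgG the 2 libraries below it had 16.6 to 27.5 rescaled TPM of Mmp9, against 3.28 to 5.81 in the 3 above it. The same libraries had 65.0 to 72.9 against 19.3 to 38.4 of Mmp13, 692 to 764 against 236 to 376 of Mmp12, and 270.4 to 278 against 90.7 to 131 of Lox. Within Veh_PD1, Mmp9 stood at 8.88 to 13.5 below the boundary and at 3.44 to 6.12 above it, and Lox at 141 to 187 below and 59.1 to 81.4 above. Timp2 went the other way in GYY_PD1 and GYY_IgG, at 43.4 to 239 below and 379 to 554 above the boundary in GYY_PD1, and at 321 to 334 below and 420.1 to 738 above in GYY_IgG. Mmp2, Mmp3, Timp1 and Timp3 were also lower below the boundary in GYY_PD1, with ranges that did not overlap. Mmp2 stood at 74.6 to 214 below and 219 to 378 above, and Timp1 at 9.47 to 75.4 and 78.3 to 286. Mmp3 stood at 0 to 1.83 below and 2.105 to 8.39 above, and Timp3 at 11.3 to 20.6 and 21.01 to 238. In GYY_IgG the ranges of Mmp2, Timp1 and Timp3 overlapped, and Mmp3 was higher below the boundary. In GYY_PD1 the ranges below and above the boundary overlapped for Mmp9, at 4.29 to 22.6 and 4.92 to 19.7, for Mmp13, at 23.2 to 135 and 46.9 to 71.4, and for Lox, at 56.1 to 356 and 177 to 366. Mmp12 in GYY_PD1 averaged 255 below and 638 above the boundary, the opposite order to GYY_IgG. In Veh_PD1 the ranges overlapped for Mmp12, Mmp13 and Timp2, and the means of Timp2 were 412.8 below and 412.5 above. Timp3 was lower below the boundary in Veh_PD1 too, at 9.097 to 17.99 against 20.6 to 29.4 above it. The part of the coding share in the differences between groups was not tested. Limited to the libraries above 15%, which are 3 of GYY_PD1, GYY_IgG and Veh_PD1 each and 5 of Veh_IgG, the log2 differences of GYY_PD1 from Veh_IgG were 0.96 for Mmp13 (limma, adjusted p = 0.0889), 1.39 for Mmp3, 0.96 for Mmp9, 1.36 for Lox and -0.055 for Timp2. The shares kept were 16.3% to 22.3% in GYY_PD1 and 27.9% to 42.8% in Veh_IgG, so this subset does not match the 2 groups on coding share.

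**Figure D4:**
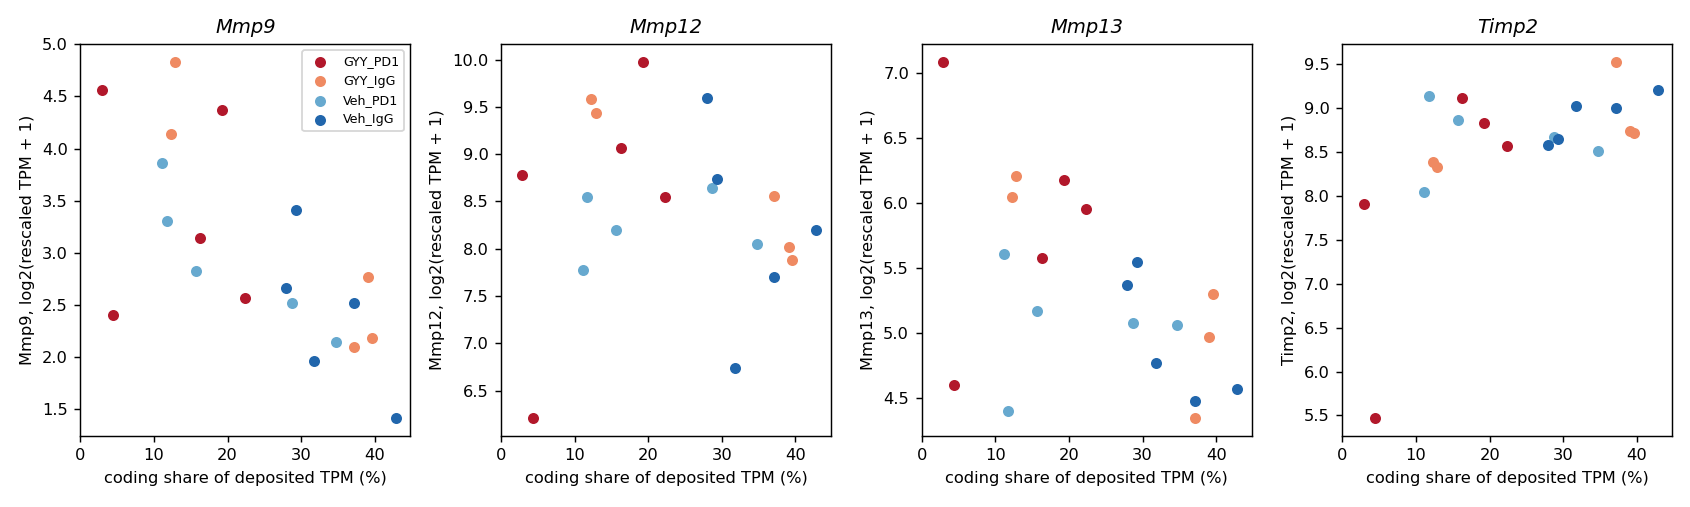
Levels of Mmp9, Mmp12, Mmp13 and Timp2 as log2(rescaled TPM + 1) against the share of the deposited TPM that falls on coding genes (percent), with 1 point per library coloured by group. All Veh_IgG points lie at a share of 27.9% or more and all GYY_PD1 points at 22.3% or less. The 2 lowest points of Timp2 are GYY_PD1 replicates 1 and 4, which have the 2 smallest shares. Veh_PD1 replicate 5, at a share of 11.7%, lies among the high points of Timp2, at 9.14.

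Timp3 followed the endothelial markers from tumour to tumour, and Mmp9 the neutrophil markers. These were among 14 relations, computed on log2 values after the mean of each group was removed, so that treatment does not enter, with permutation within groups (100000 resamples, two-sided) and adjustment over the 14. The coding share of the libraries also varied within groups and was not removed, and its part in these relations was not tested. Timp3 and the mean of 8 endothelial markers (Pecam1, Cdh5, Kdr, Tek, Emcn, Vwf, Egfl7 and Cldn5) correlated with r = 0.90 over 20 libraries (permutation p = 7e-05, adjusted p = 0.00098; Spearman rho = 0.78, permutation p = 0.00063, adjusted p = 0.00882). Without the 2 libraries farthest from the median of Timp3, GYY_PD1 replicate 3 and Veh_IgG replicate 2, r was 0.78. It was 0.89 without the pair that stood apart (permutation, adjusted p = 0.00504) and 0.89 on deposited values centred on the library median (permutation, adjusted p = 0.0049). Of the endothelial markers only Vwf was listed at 0 anywhere, in 1 library. Their summed level was 135 to 503 rescaled TPM in GYY_PD1, 165 to 289.6 in GYY_IgG, 117 to 221 in Veh_PD1 and 66.1 to 281 in Veh_IgG. In bulk tumour RNA fewer cells of a type and less RNA per cell cannot be told apart.

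Timp3 also correlated with 8 kidney tubule markers (r = 0.68, permutation p = 0.00535, adjusted p = 0.0195; Spearman rho = 0.64, permutation p = 0.00877, adjusted p = 0.0307; r = 0.67 without the 2 farthest libraries). This relation had r = 0.64 on the median-centred deposited values and did not pass there (permutation, adjusted p = 0.0853). The tubule markers, which include Umod and Aqp2, summed to 51.0 to 190.1 rescaled TPM in GYY_PD1, 15.8 to 230.3 in GYY_IgG, 18.5 to 74.5 in Veh_PD1 and 43.8 to 378 in Veh_IgG. Umod was listed at 0 in 3 libraries and no other tubule marker was.

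Mmp9 and 8 neutrophil markers, among them S100a8, S100a9 and Mmp8, correlated with r = 0.69 (permutation p = 0.00092, adjusted p = 0.00644; Spearman rho = 0.72, permutation p = 0.00202, adjusted p = 0.0141; r = 0.64 without the 2 farthest libraries). Mmp9 and Timp1 correlated with r = 0.55 (permutation p = 0.00698, adjusted p = 0.0195; Spearman rho = 0.61, permutation p = 0.00763, adjusted p = 0.0307; r = 0.54 without the 2 farthest). Neither passed on the median-centred deposited values, with r of 0.47 and 0.43 (permutation, adjusted p = 0.111 for both). The neutrophil markers summed to 33.6 to 5941 rescaled TPM in GYY_PD1, 216 to 2343 in GYY_IgG, 662 to 2185 in Veh_PD1 and 89.0 to 1869 in Veh_IgG, and of these markers Camp was listed at 0 in 13 libraries, Ly6g in 4 and S100a8, S100a9, Cxcr2, Retnlg and Mmp8 in 1 each. The tumour with the highest sum, GYY_PD1 replicate 4, was also the second highest in Mmp9.

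**Figure D5:**
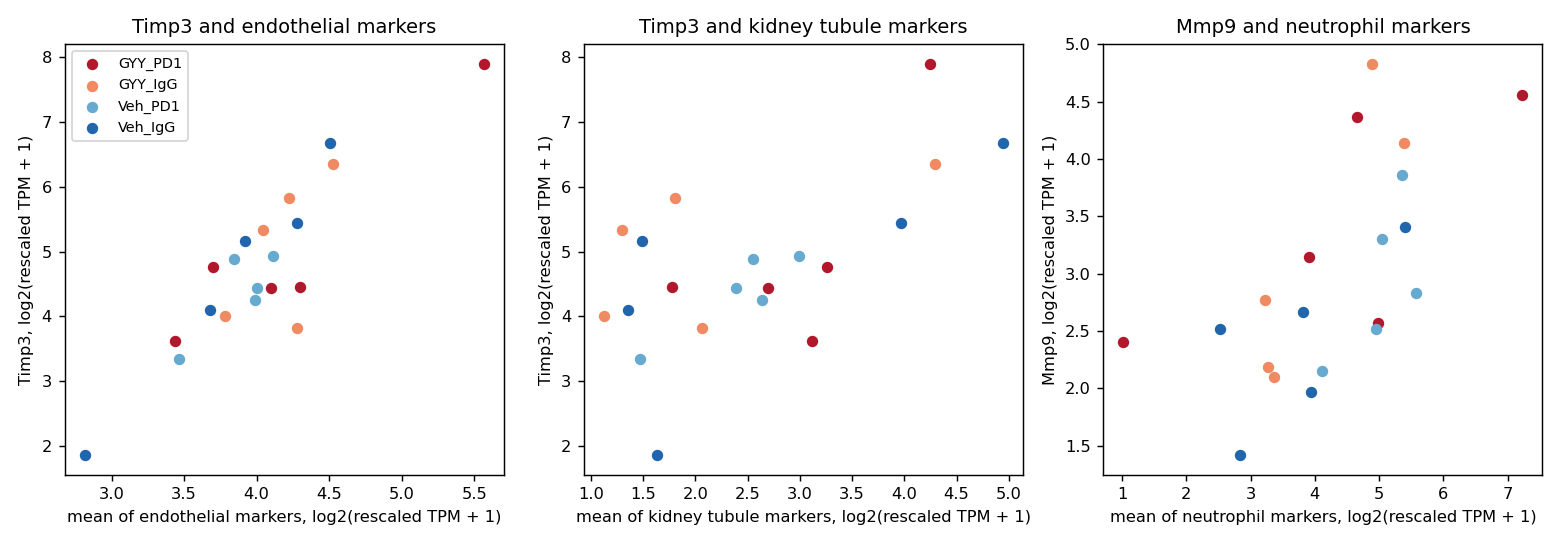
Timp3 against the mean of 8 endothelial markers (left), Timp3 against the mean of 8 kidney tubule markers (middle) and Mmp9 against the mean of 8 neutrophil markers (right), all as log2(rescaled TPM + 1), with 1 point per library coloured by group. The left panel shows the closest relation, r = 0.90 after the group means were removed, with GYY_PD1 replicate 3 at the top and Veh_IgG replicate 2 at the bottom.

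Lox and Mmp2 correlated with r = 0.54 (permutation p = 0.0056, adjusted p = 0.0195; Spearman rho = 0.52, permutation p = 0.0171, adjusted p = 0.0479). Without the 2 farthest libraries r was 0.37. Without the pair that stood apart r was 0.43 and rho 0.53 (permutation, adjusted p = 0.099 and 0.0753), and on the median-centred deposited values r was 0.45 and rho 0.51 (permutation, adjusted p = 0.107 and 0.0944). The other 9 relations did not pass. Among them were Mmp2 with Timp2 (r = 0.65, rho = 0.45; permutation, adjusted p = 0.065 and 0.121), Mmp12 with Mmp13 (r = 0.58, rho = 0.57; permutation, adjusted p = 0.065 and 0.0564), Lox with the fibroblast markers (r = 0.50, rho = 0.42; permutation, adjusted p = 0.0797 and 0.121; r = 0.55 and adjusted p = 0.047 without the pair that stood apart) and Mmp3 with Mmp13 (r = 0.47, rho = 0.44; permutation, adjusted p = 0.102 and 0.121). Mmp12, the macrophage elastase, had no detectable relation with the 8 macrophage markers (r = 0.36, rho = -0.039; permutation, adjusted p = 0.344 and 0.942), and r was -0.31 without the pair that stood apart. Mmp2 with Mmp14, Mmp2 with the fibroblast markers, Timp2 with Timp3 and Mmp14 with Timp2 had r of 0.30, 0.25, 0.32 and 0.12.

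The rest of the family had lower medians over the 20 libraries than Mmp2 and Mmp12, from 0.0497 rescaled TPM for Mmp20 to 39.3 for Mmp19. Of 17 further Mmp genes 13 passed the filter, of which 10 had a higher mean log2 level in GYY_PD1 than in Veh_IgG and 3 a lower one, with a median of 0.62 beside -0.08 over all genes. None passed after adjustment, and 5 higher and 1 lower had an unadjusted p under 0.05 by limma. Among all tested genes 16.3% were higher and 6.93% lower at that level. Mmp25, a membrane-bound protease known from neutrophils, averaged 5.25 ± 3.85 rescaled TPM in GYY_PD1 and 1.06 ± 0.884 in Veh_IgG (SD, n = 5 each; log2 difference 1.48, limma, adjusted p = 0.102). The membrane-type Mmp15 averaged 3.61 ± 0.998 in GYY_PD1 and 1.33 ± 0.565 in Veh_IgG (SD, n = 5 each; log2 difference 0.99, limma, adjusted p = 0.117). Mmp16 and Mmp17, also membrane-bound, had log2 differences of 1.71 and 0.72, at mean levels of 5.26 and 1.14 rescaled TPM in GYY_PD1 and 0.181 and 0.277 in Veh_IgG. The 5 Mmp17 levels of GYY_PD1 lay within the range of the receptor genes given above. Mmp15 reached at most 5.13 in GYY_PD1, and the medians of Mmp16 and Mmp25 there were 1.53 and 3.55. The 95th percentile of the receptor genes was 7.58 in GYY_PD1 replicate 1 and 6.32 in replicate 4. As deposited TPM the means of Mmp15 were 0.416 in GYY_PD1 and 0.455 in Veh_IgG, and those of Mmp25 were 0.428 and 0.328. The part of the background in the levels of Mmp15, Mmp16, Mmp17 and Mmp25 was not tested. GYY_PD1 replicate 1 held the highest level of Mmp11 at 850.1 rescaled TPM, of Mmp24 at 463.5 and of Mmp16 at 19.5, and without this library the log2 difference of Mmp16 was 1.11.

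Reck, a membrane-anchored inhibitor of Mmp2, Mmp9 and Mmp14, had a log2 difference of 1.95 (SE 0.57; limma, adjusted p = 0.102), with 13.4 ± 20.5 rescaled TPM in GYY_PD1 and 1.03 ± 0.894 in Veh_IgG (SD, n = 5 each). Without GYY_PD1 replicate 4, at 49.7, the group mean was 4.29 and the log2 difference 1.26. A2m, a plasma inhibitor that traps proteases, had 0.59, and Timp4 did not pass the filter. Of the 4 other lysyl oxidases Loxl1, Loxl2 and Loxl3 had differences of 0.56, 0.56 and 1.01, whereas Loxl4 had -0.82 (limma, adjusted p = 0.185). Without GYY_PD1 replicate 3 the differences of Loxl1 and Loxl2 were 0.066 and 0.15, and without GYY_PD1 replicate 1 those of Loxl3 and Loxl4 were 0.22 and -0.37.

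Genes upstream and downstream of the proteases gave no call either. In the plasminogen system, whose plasmin activates several proMmps, 8 of 11 tested genes were higher and 3 lower in GYY_PD1 than in Veh_IgG (median 0.31), and none had an unadjusted p under 0.05. Of 16 adamalysins 10 were higher and 6 lower (median 0.48), with the smallest p for Adamts14 at 1.33 and Adamts10 at 1.31 (limma, adjusted p = 0.108 and 0.137); without GYY_PD1 replicate 1 that of Adamts10 was 0.86. Of 17 matrix substrates, such as collagens, fibronectin and laminins, 12 were higher and 5 lower (median 0.24). For the substrates the sign of the average differences was one-sided: 16 of 17 were higher with GYY4137 than with vehicle (median 0.48 beside 0.003 over all genes), and 16 of 17 were lower with anti-PD1 than with IgG (median -0.37 beside -0.07), none with an unadjusted p under 0.05. The 8 fibroblast markers, some of which are also matrix substrates, had the same signs, 8 of 8 higher and 8 of 8 lower. Their sum was 88.5 to 3066 rescaled TPM in GYY_PD1, 87.7 to 1394 in GYY_IgG, 57.7 to 271 in Veh_PD1 and 32.0 to 499 in Veh_IgG. The part of single libraries in these signs was not tested, and genes of a list that vary together are not separate results. All these list counts are on the rescaled values.

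Genes whose levels ranked the 20 tumours most like each member were found by Spearman correlation over all tested genes with an established name, as a description without a test. For Mmp14 they were Col5a2 (rho = 0.93), Thbs2 (0.92) and Postn (0.92), and for Timp3 they were Plxdc2 (0.93), Cd38 (0.89) and Mapre2 (0.89). For Lox they were Rbpj (0.92), Dusp4 (0.92) and Cited2 (0.91), and for Timp2 they were Cerk (0.92), Esyt2 (0.90) and Ypel2 (0.89). Mmp2 was most like Actg1 (0.83), Mmp9 most like Gucy2d (0.92), Mmp3 most like Penk (0.92), Mmp12 most like Klrg1 (0.85), Mmp13 most like Gal3st3 (0.90) and Timp1 most like Abcb1b (0.82). Over the 18 libraries without the pair that stood apart, the first gene stayed first for Mmp2, Mmp3, Mmp12, Timp2 and Lox. Among the members themselves the closest pair over the 20 libraries was Mmp9 with Mmp13 (rho = 0.75), followed by Mmp9 with Lox (0.66), and the most opposed was Timp2 with Mmp13 (-0.60), next to Timp2 with Mmp9 (-0.43). These libraries share the coding share described above, and its part in these correlations was not tested.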

How the data were processed

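Bulk RNA-seq of 20 kidney tumours, 5 in each of 4 groups, was analysed from 1 deposited table. Its values are log2 TPM, as the authors deposited them, with a floor of -8.88 for 0 TPM, and each column adds up to 999797 to 1000219 TPM once raised back. Per the labels' protocols, RNA was harvested in QIAzol and libraries were made with Nextera XT. Per the submitters' processing notes, cutadapt, fastp, Salmon 0.14.1, HTSeq 0.11.0 and build mm10 were used; which of them made the TPM is not given in the sources used here. TPM keep no depth, so no counting interval is given.

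TPM were rescaled to 1000000 over 18021 nuclear protein-coding genes of GENCODE M21 (33908 of 34234 names matched), without provisional Gm names and without olfactory and vomeronasal receptors. Genes at 1 rescaled TPM or more in at least 5 libraries were tested (15855) on log2(rescaled TPM + 1), on which a fold understates the change of low genes. A group-means model over all 20 libraries was fitted with limma 3.58.1 (R 4.3.3; trended empirical Bayes, 16 residual degrees of freedom, two-sided, Benjamini-Hochberg adjusted p under 0.05), for 8 comparisons. The fit was tested on simulated data. Ratios, relations and promoter letters were computed in Python 3.11.15. Alternatives were other scales, filters, pseudocounts and fits, libraries left out, and a replicate block. The members, the gene lists and the tests were chosen with earlier results of these data known. Named are all members, up to 4 genes of each pathway list with the smallest p in GYY_PD1 against Veh_IgG, the family genes that passed the filter, and up to 3 genes most like each member; a few further genes of the chromosome 9 cluster and of the marker lists are named for their place.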

Additional observations from a re-analysis of the deposited data

Results flagged for a closer look

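The highest and the lowest value of each member in each group were compared on the log2(rescaled TPM + 1) scale with the rest of the group by the gap to the nearest library over the range of the group (40 groups of 5 libraries). Of these 40, 2 exceeded the 95% critical value of 0.71, and chance gives about 1 in 20 such groups. On the linear scale 5 did, these 2 and Mmp14 in GYY_PD1 replicate 3 (162 rescaled TPM), Timp1 in GYY_IgG replicate 4 (199.8) and Timp2 in GYY_IgG replicate 5 (738). Timp3 stood at 238 rescaled TPM in GYY_PD1 replicate 3, far above the other 4 libraries of that group. This library also held the highest sum of endothelial markers of all 20 (503 rescaled TPM), of fibroblast markers (3066) and of adipocyte markers (4809, against at most 316.5 in any other library); their part in the Timp3 value was not tested. Timp1 stood at 127 rescaled TPM in Veh_IgG replicate 4, above the other 4 Veh_IgG libraries, which lay between 83.7 and 92.7. The highest Timp1 value of all 20 libraries, 286 in GYY_PD1 replicate 3, did not meet the criterion within its own group on either scale.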

How the results depend on the processing

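In GYY_PD1 against Veh_IgG, limma on the rescaled values called 0 genes; on the deposited values it called 10831, with library weights 64, and with the libraries of at least 15% coding TPM, chosen after seeing the data, 107. With 1 library left out the count ranged from 0 to 810, the highest without GYY_PD1 replicate 2 and otherwise 9, 6, 4 and 3 without GYY_PD1 replicates 1 and 3 and Veh_PD1 replicates 1 and 5. Against Veh_PD1 it was 12 on the deposited values, 1 on the median-centred values and 1 with a pseudocount of 0.1; against GYY_IgG it was 10 on the deposited values and 3 with the libraries of at least 15%. For the GYY4137 average it was 2 on the deposited values and 11 with library weights, and for the anti-PD1 average 1 with library weights. The causes were not tested.

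Of 654 alternative values of the 10 members in the combination and the GYY4137 average, 621 kept their direction, 33 turned and 2 passed the threshold, those of Timp1 and Timp2 on the deposited values. On the deposited values, whose median of all genes was -2.09, the combination gave -1.60 for Mmp2, -0.58 for Mmp9, -1.45 for Mmp12, -0.82 for Mmp13, -1.24 for Mmp14, -1.31 for Timp3 and -0.67 for Lox, and the GYY4137 average, with a median of -0.78, gave -0.35 for Mmp2, -0.28 for Mmp12, -0.034 for Mmp13, -0.046 for Mmp14 and -0.080 for Timp3. Timp1 in the combination turned to 0.36 with library weights and to 0.52 without the pair that stood apart or with at least 15% coding TPM. It turned to 0.31 without GYY_PD1 replicate 1 and GYY_IgG replicate 5, whose numbers in the column labels lie apart from the rest. In the average Timp1 turned to 0.011 with upper quartile scaling and to 0.28, 0.40, 0.37 and 0.33 under those settings. Timp2 in the average turned to 0.038, 0.019 and 0.13 with library weights, without the pair that stood apart and with at least 15% coding TPM. With 1 library left out, the combination ranged from -0.052 to 0.53 for Mmp2, -0.045 to 0.90 for Mmp12, -0.88 to 0.31 for Timp1 and -0.32 to 0.90 for Timp3, and the average from -0.30 to 0.29 for Timp1. The relation of Mmp12 with macrophage markers turned to -0.31 without the pair that stood apart and to -0.036 on the median-centred values, on which that of Mmp14 with Timp2 turned to -0.075.

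With the replicate block the combination called 3 genes, none of them members, and no call of the other comparisons changed. The numbers do not pair the tumours: same-numbered libraries correlated in their deviations from the group means with r from -0.43 to 0.43 (30 pairs), and 3 of 20 libraries correlated best with one of their own number. Mmp3 did not pass the filter on the deposited values or at 5 rescaled TPM. No depth is known. The differences of family, lysyl oxidase, inhibitor and adamalysin genes with 1 library left out were added after seeing the data.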
